A study of Mus musculus with 18 samples.

Results

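The expression of 10 sarcomere genes was described in the left ventricle of mice that overexpressed Gαq in the heart and of their wild type (WT) littermates, each fed a control diet (CD) or chow with the SGLT2 inhibitor ertugliflozin (ERTU). The genes were listed by name and comprised 3 myosin heavy chains (Myh6, Myh7 and Myh7b), 2 sarcomeric actins (Acta1 and Actc1), 3 troponin subunits (Tnni1, Tnni3 and Tnnt2) and 2 myosin light chains (Myl2 and Myl3). All 10 were found among the 55450 gene IDs of the count table, and 9 of the 10 were among the 16270 genes with enough reads to be tested. Tnni1 was not. The 18 libraries came from 4 groups: WT CD with 4 libraries, WT ERTU with 5, Gαq CD with 5 and Gαq ERTU with 4. All mice were male and of the FVB/N strain, and the genotypes were littermates. Treatment began at 4 weeks of age and lasted 16 weeks, so that hearts were taken at 20 weeks, and the treated chow held 0.5 mg of ertugliflozin per g. Gαq is the α subunit of a heterotrimeric G protein that couples angiotensin, endothelin and α1-adrenergic receptors to phospholipase C, and the transgene was cardiac-specific. The promoter that drives it is not given in the sources used here. Libraries are called by the number in their column of the table, which runs from 1 to 20 across the groups. No source here states which hearts shared a litter or a day of preparation, and p-values therefore measure the spread between these libraries.

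The sarcomere is built from thick filaments of myosin and thin filaments of actin with the troponin and tropomyosin complex. Several of its proteins have pairs of isoforms encoded by separate genes, of which 1 predominates before birth and the other in the adult. In the mouse ventricle the slow β-myosin heavy chain (Myh7) and slow skeletal troponin I (Tnni1) are typical of the fetal heart, and the fast α-myosin heavy chain (Myh6) and cardiac troponin I (Tnni3) of the adult. Skeletal α-actin (Acta1) is the minor partner of cardiac α-actin (Actc1) in the adult heart. A return toward the fetal members, first of all Myh7 and Acta1, is a long known feature of pressure-loaded and failing rodent hearts.

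In the mouse genome (GRCm38/mm10, GENCODE M21) the heavy chain genes Myh6 (ENSMUSG00000040752, chr14:54941921-54966927) and Myh7 (ENSMUSG00000053093, chr14:54970684-54994626) are neighbours on the minus strand, and Myh7b (ENSMUSG00000074652) is at chr2:155611212-155634307. The actin genes lie apart, Acta1 (ENSMUSG00000031972) at chr8:123891769-123894751 and Actc1 (ENSMUSG00000068614) at chr2:114047282-114053548. Tnni1 (ENSMUSG00000026418, chr1:135779434-135810989) and Tnnt2 (ENSMUSG00000026414, chr1:135836354-135852260) are close to each other, whereas Tnni3 (ENSMUSG00000035458) is at chr7:4518305-4524229. Myl2 (ENSMUSG00000013936) is at chr5:122100951-122113472 and Myl3 (ENSMUSG00000059741) at chr9:110741861-110769798.

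The sequences at the start of the 4 genes whose ratios are described are printed here because Myh7 and Acta1 are read against Myh6 and Actc1. Each window runs from 250 bases before to 50 bases after a transcription start in RefSeq (GRCm38.p6), and capitals mark the hexamer CATTCC of the M-CAT element, bound by TEAD factors, and the CArG box, bound by serum response factor, on either strand.
Myh7, chr14:54994577-54994876, minus strand: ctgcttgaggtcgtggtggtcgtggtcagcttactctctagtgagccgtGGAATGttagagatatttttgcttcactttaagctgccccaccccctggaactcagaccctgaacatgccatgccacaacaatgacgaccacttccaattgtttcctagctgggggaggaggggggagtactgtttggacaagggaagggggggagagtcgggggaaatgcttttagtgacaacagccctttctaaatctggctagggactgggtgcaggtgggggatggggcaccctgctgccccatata
Myh6, chr14:54966558-54966857, minus strand: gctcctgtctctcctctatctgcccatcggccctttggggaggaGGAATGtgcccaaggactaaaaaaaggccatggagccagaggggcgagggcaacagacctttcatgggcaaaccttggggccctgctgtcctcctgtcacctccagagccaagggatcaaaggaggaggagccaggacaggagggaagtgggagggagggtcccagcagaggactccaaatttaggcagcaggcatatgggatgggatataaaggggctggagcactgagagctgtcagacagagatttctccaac
Acta1, chr8:123894726-123895025, minus strand: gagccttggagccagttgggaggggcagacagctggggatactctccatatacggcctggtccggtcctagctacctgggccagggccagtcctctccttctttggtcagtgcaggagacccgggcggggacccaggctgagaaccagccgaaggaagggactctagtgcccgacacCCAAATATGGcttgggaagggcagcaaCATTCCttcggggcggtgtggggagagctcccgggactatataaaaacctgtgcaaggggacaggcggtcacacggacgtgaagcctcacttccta
Actc1, chr2:114052826-114053125, minus strand: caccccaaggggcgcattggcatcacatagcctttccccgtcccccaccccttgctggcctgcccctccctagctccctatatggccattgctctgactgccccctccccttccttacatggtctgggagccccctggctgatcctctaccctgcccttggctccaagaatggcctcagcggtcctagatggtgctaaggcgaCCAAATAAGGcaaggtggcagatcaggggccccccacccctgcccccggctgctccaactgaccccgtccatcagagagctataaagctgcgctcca
All 10 genes had at least 1 such window, and 14 windows were searched in all. The windows of Myl2, chr5:122092474-122092773 and chr5:122092939-122093238, lie before the span of that gene given above. The start of that span was thus not searched. The hexamer was present in a window of 5 of the 10 genes (Myh6, Myh7, Acta1, Tnnt2 and Myl3), whereas 16.6% of all 27025 genes with windows held it. A CArG box was present for 3 of the 10 genes (Acta1, Actc1 and Myl3), against 1.81% of all genes. In Acta1 the CArG box lay at -73 to -64 and the hexamer at -46 to -41 relative to the start, and in Actc1 the CArG box lay at -47 to -38. The hexamer of Myh7 at -201 to -196 and that of Myh6 at -206 to -201 were both read as its reverse complement, GGAATG. The position in Myh7 is that of the window printed. The window of its other start, chr14:54994500-54994799, lies further downstream and held no hexamer. A match of letters is not evidence of a bound site.

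The 3 heavy chain genes each carry a microRNA in an intron, and the mature strands are shown because they tie the host genes to each other by sequence. Capitals mark the seed, bases 2 to 8.
mmu-miR-208a-3p, in Myh6, chr14:54949072-54949093, minus strand: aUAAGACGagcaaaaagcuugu
mmu-miR-208b-3p, in Myh7, chr14:54975710-54975731, minus strand: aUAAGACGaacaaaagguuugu
mmu-miR-499-5p, in Myh7b, chr2:155622893-155622913, plus strand: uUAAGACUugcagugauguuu
The miR-208a and miR-208b strands share their seed and differ at 3 of 22 bases, whereas the miR-499 seed differs from theirs only at base 8. Mature microRNAs were not measured by these libraries of polyadenylated RNA.

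The libraries held between 15383566 and 20908363 counts. The 10 genes together took 8.02% ± 0.72 (SD, n = 18) of all counts, with a range of 6.78% to 9.18%. Gnaq, the overexpressed gene, was at 45.5 to 229.7 CPM (counts relative to the library size scaled by the trimmed mean of M values, TMM) in the 9 WT libraries, at 1641 to 11672 CPM in the Gαq CD libraries and at 2236 to 5207 CPM in the Gαq ERTU libraries. Every library therefore matched its genotype label. Markers fixed for cardiomyocytes were abundant in every group, with sums of 23917 to 31431 CPM, whereas Bmp10 of the atrial list was under 1 CPM throughout. The other atrial markers were uneven, and 1 library of each group stood highest, at 344 CPM in WT CD (library 5), 357 in WT ERTU (library 14), 964 in Gαq CD (library 8) and 616 in Gαq ERTU (library 20), where the lowest library of all was at 15.8 CPM. Where the call of a member, or the sign or call of a ratio difference, changed without these 4 libraries, that result is given below. Other estimates without them are not printed.

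Levels were compared between genes as CPM per kilobase of the principal transcript. The order depends on this choice of length, since counts cover all exons of a gene. For Tnnt2 the principal transcript has 1200 bases and the longest 3330, and its rank below rests on the former. In WT CD hearts the troponin T gene Tnnt2, which anchors the troponin complex to tropomyosin, was highest at 8733 ± 1979 CPM per kb (SD, n = 4), and the ventricular regulatory light chain Myl2 followed at 8313 ± 1931. Myh6 at 7252 ± 1117, Actc1 at 6073 ± 1338, the ventricular essential light chain Myl3 at 5221 ± 431 and Tnni3 at 4553 ± 925 came next. Within this upper range the neighbours were close: Tnnt2 exceeded Myl2 in 3 of 4 libraries, Myl2 exceeded Myh6 in 3 of 4 and Actc1 exceeded Myl3 in 3 of 4. Acta1 at 501 ± 386 and Myh7 at 414 ± 140 were far lower and could not be ordered, since Acta1 exceeded Myh7 in 2 of 4 libraries. Myh7b, a slow-type heavy chain gene that hosts miR-499, was at 27.7 ± 11.7 CPM per kb. Tnni1 was at 0.149 ± 0.266 CPM per kb, and 2 of the 4 WT CD libraries had no read of it.

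In WT ERTU hearts Acta1 was at 405 ± 281 CPM per kb and Myh7 at 365 ± 53.4 (SD, n = 5), and again they could not be ordered, since Acta1 was the higher in 3 of 5 libraries. In Gαq CD hearts Acta1 stood at 1258 ± 261 and Myh7 at 1161 ± 290.4 (SD, n = 5), again with no clear order, since Acta1 was the higher in 3 of 5 libraries. In Gαq ERTU hearts Myh7 was at 1418 ± 495 and above Acta1, at 762 ± 277, in 4 of 4 libraries. Myh6 lay above Actc1 in 3 of 4 WT CD, 5 of 5 WT ERTU and 4 of 4 Gαq ERTU libraries, but Actc1 was the higher in 4 of 5 Gαq CD libraries.

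**Figure D1:**
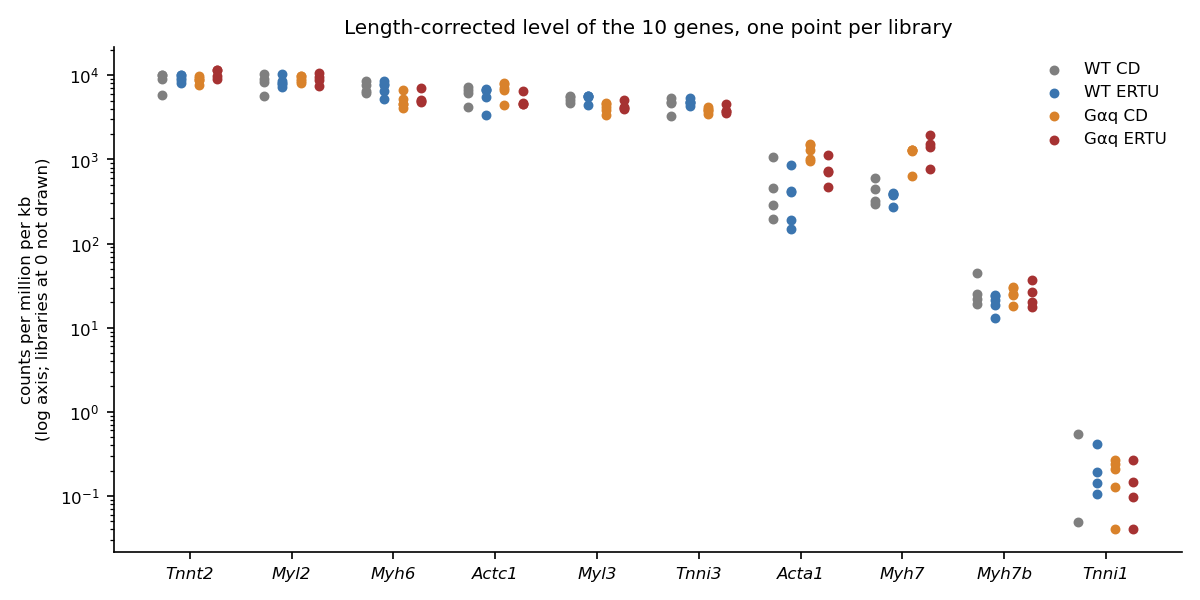
Level of each gene in CPM per kilobase of its principal transcript (log axis), 1 point per library, coloured by group. Libraries with no read are not drawn. Tnnt2, Myl2, Myh6, Actc1, Myl3 and Tnni3 lie together at the top, Acta1 and Myh7 lie below them, and Tnni1 lies at the floor with 59 counts in all 18 libraries.

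Gαq hearts expressed more Myh7 than WT hearts on each diet, and less Myh6 over both diets. In CPM, Myh7 was at 1982, 3720.0, 1827 and 2797 in the 4 WT CD libraries and at 2409, 2366, 2477, 2440.0 and 1684 in the 5 WT ERTU libraries. The Gαq CD libraries were at 7839, 8144, 4004, 8072 and 8110.1 CPM and the Gαq ERTU libraries at 9509, 12257, 8763 and 4796 CPM. The lowest Gαq library, library 8 of Gαq CD, was thus above the highest WT library, library 2, and the 9 Gαq libraries did not overlap with the 9 WT libraries. By edgeR's quasi-likelihood test over both diets, Myh7 was 3.30-fold higher in Gαq hearts, a log2 fold change of 1.72 ± 0.19 (SE) with a Benjamini-Hochberg adjusted p of 1.18e-06. Of all genes tested, 19.6% were called at an adjusted p under 0.05 in this comparison, 9.72% as higher and 9.92% as lower, and 3.56% had genotypes that did not overlap. With counts scaled to library totals only, 61.5% of the called genes were higher, against 49.5% with TMM.

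The increase in Myh7 was present on each diet. It was 1.49 ± 0.26 (log2 ± SE, adjusted p 0.00112) on CD and 1.96 ± 0.26 (adjusted p 6.49e-05) on ERTU, where 8.1% and 8.17% of all genes were called. The difference between these 2 increases was 0.47 ± 0.36 on the log2 scale and was not called (interaction, adjusted p 1.00). Myh7 was the only member called within each diet by edgeR's test.

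Myh6 made up most of the heavy chain message in every library. It was at 46712, 52851, 37821 and 39944 CPM in WT CD and at 48346, 52815, 40130.4, 31625 and 46332 CPM in WT ERTU. In Gαq CD it was at 40564, 25032, 28273, 31653 and 28108 CPM and in Gαq ERTU at 30462, 43736, 31006 and 29233 CPM. Most Gαq libraries were below most WT libraries, but the highest Gαq library (library 17, ERTU) exceeded 4 WT libraries. Over both diets Myh6 was 1.37-fold lower (log2 fold change -0.46 ± 0.13, edgeR adjusted p 0.0131). The call was lost when the mean log2 CPM of the cardiomyocyte markers was added to the model (-0.13 ± 0.15, adjusted p 0.715) and when the summed atrial markers were (-0.37 ± 0.13, adjusted p 0.0554). The cardiomyocyte covariate itself followed genotype. It was 10.62 to 10.92 in Gαq libraries and 10.97 to 11.18 in WT libraries other than library 5 (10.79). A fit with it therefore also takes out genotype differences, and cannot tell the effects of genotype and marker level apart. Within a diet the differences were -0.53 ± 0.18 (CD, adjusted p 0.0836) and -0.38 ± 0.18 (ERTU, adjusted p 0.233).

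Of the 10 cardiomyocyte markers, 3 (Ryr2, Ldb3 and Ckmt2) were called lower in Gαq hearts and none higher. Of all genes tested, 9.92% were called lower and 9.72% higher. The summed levels of these markers were 24760 to 31431 CPM in WT and 23917 to 30187 CPM in Gαq libraries. Their mean log2 CPM, the covariate of the fit above, was lower in every Gαq library than in every WT library except library 5. Of 8 fibroblast markers 6 were called higher, with sums of 1471 to 3076 CPM in WT and 2826 to 4280 CPM in Gαq libraries. In tissue RNA, fewer cardiomyocytes and less message per cardiomyocyte cannot be told apart, and the part of cell make-up in these differences was not tested. Of the other lists, 2 of 6 endothelial markers (Cdh5 and Tie1) were called lower and 1 of 5 leukocyte markers (Ptprc) higher, and no smooth muscle (0 of 6) or atrial marker (0 of 6) was called. The median log2 fold change was nonetheless 1.40 for the atrial markers, which were uneven within groups, and -0.09 for the smooth muscle markers. These lists are short, and 19.6% of all genes were called in either direction.

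Since both genes are read in the same library, their ratio does not depend on scaling. Per length, Myh7 was 5.35% ± 1.28 (SD, n = 4) of Myh6 plus Myh7 in WT CD hearts, 5.01% ± 1.40 (n = 5) in WT ERTU hearts, 18.9% ± 4.8 (n = 5) in Gαq CD hearts and 20.1% ± 4.3 (n = 4) in Gαq ERTU hearts. The 9 WT libraries lay between 3.44% and 7.04% and the 9 Gαq libraries between 12.2% and 24.2%, with no overlap. The log2 ratio of counts averaged -4.15, -4.26, -2.12 and -1.99 in the same order of groups. The genotype difference of 2.15, or 4.45-fold, had an exact 2-sided permutation p of 0.000126, the smallest that the joint splits of both diets allow, and an adjusted p of 0.00265 over 21 ratio tests. On CD alone it was 2.03 and on ERTU alone 2.27, each with the smallest exact p that 4 against 5 libraries allow, 0.0159, and an adjusted p of 0.0833. No difference with diet was found: in WT hearts the ratio differed by -0.11 between diets (exact permutation p 0.683), in Gαq hearts by 0.13 (exact permutation p 0.698), and the interaction had an exact permutation p of 0.545.

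**Figure D2:**
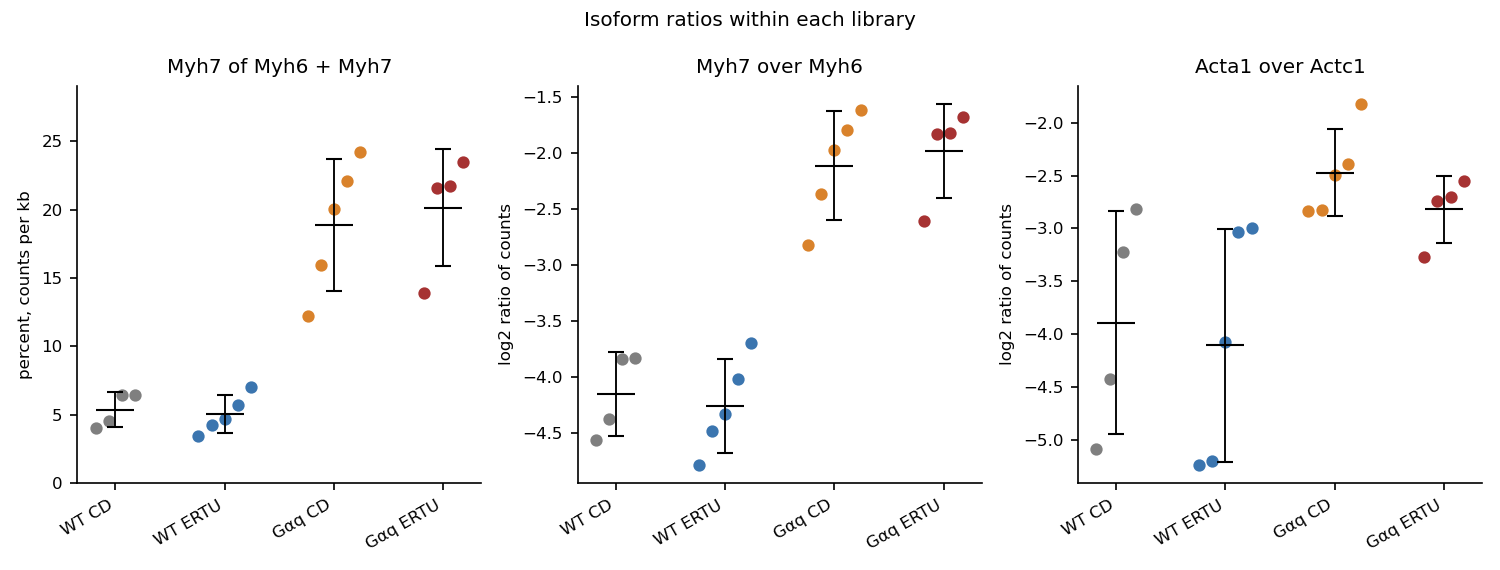
Isoform ratios by library in the 4 groups: Myh7 as a percent of Myh6 plus Myh7 per kilobase (left), and the log2 ratios of counts of Myh7 to Myh6 (middle) and Acta1 to Actc1 (right). Points are libraries and bars are the mean and SD. The Myh7 share is 3.44% to 7.04% in WT and 12.2% to 24.2% in Gαq libraries, whereas the actin ratios of the genotypes overlap.

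Myh7b did not differ between genotypes beyond its spread. It was at 80.0 to 277 CPM in the 9 WT libraries and at 107 to 228 CPM in the 9 Gαq libraries, with a log2 fold change of 0.11 ± 0.18 (edgeR adjusted p 0.729). Properties of the annotation bear on the heavy chains. Of the 100-base stretches of the Myh6 transcript, 11.4% also occur in Myh7, and reads lying wholly in these would not be counted as unique. The antisense transcript Mhrt shares 484 exonic bases with Myh7, and although the study's methods state a same-strand count, whether the kit marked strand is not given in the sources used here. Mhrt was at 36.4 to 81.9 CPM, far under Myh7 itself.

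Acta1, the fetal and skeletal isoform, was higher in Gαq hearts, with wide variation among WT hearts. In WT CD it was at 1528, 419.7, 287 and 664 CPM and in WT ERTU at 1239, 594, 216, 603 and 277 CPM. In Gαq CD it was at 2219.9, 1392, 1476, 2146 and 1865 CPM and in Gαq ERTU at 687, 1650.1, 1018 and 1053 CPM. The WT libraries spanned a 7.06-fold range, and libraries 1 and 11, the highest of the WT groups, lay within the range of the Gαq libraries. Over both diets Acta1 was 2.17-fold higher in Gαq hearts (log2 fold change 1.12 ± 0.32, edgeR adjusted p 0.0161). Without the library highest in atrial markers of each group the difference was 1.15 ± 0.40 (adjusted p 0.0593). It was 1.33 ± 0.46 on CD (adjusted p 0.088) and 0.91 ± 0.45 on ERTU (adjusted p 0.244). Without library 1, the CD difference was 1.99 ± 0.46 (adjusted p 0.0139).

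Actc1, the adult isoform, did not follow. It was at 10786, 9035, 9768 and 6193 CPM in WT CD, at 9855, 9984, 8153, 4930.3 and 10168 CPM in WT ERTU, at 11610.4, 9907, 10449, 12079 and 6597 CPM in Gαq CD and at 6647, 9691, 6802 and 6868 CPM in Gαq ERTU. These groups overlapped widely, and the genotype difference was -0.01 ± 0.16 on the log2 scale (edgeR adjusted p 0.973). Its sign changed with the scaling, being 0.05 ± 0.14 when counts were scaled to the library totals only.

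The ratio of Acta1 to Actc1 separated the genotypes less completely than that of the heavy chains. Per length, Acta1 was 7.47% ± 4.53 (SD, n = 4) of the pair in WT CD, 6.70% ± 4.31 (n = 5) in WT ERTU, 15.8% ± 4.0 (n = 5) in Gαq CD and 12.8% ± 2.3 (n = 4) in Gαq ERTU hearts. The WT libraries ranged from 2.63% to 12.6% and the Gαq libraries from 9.53% to 22.4%, and so overlapped. The log2 ratio of counts was 1.35 higher in Gαq hearts, or 2.55-fold, with an exact permutation p of 0.00126 and an adjusted p of 0.0132. It was 1.42 higher on CD and 1.29 higher on ERTU, each with an exact permutation p of 0.0476 and an adjusted p of 0.167. No 100-base stretch of either actin transcript occurs in the other, so that the reads of this pair could be told apart.

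Within the 9 Gαq libraries Actc1 was the member that ran most closely with the transgene. Its log2 CPM had a Pearson r of 0.93 and a Spearman rho of 0.92 with that of Gnaq, and r was 0.90 without the 2 libraries farthest from the median of Gnaq and 0.90 for deviations from the 2 diet means. A relation this strong was found for 0.51% of all genes tested. For Acta1 r was 0.50 (0.79 without the 2 farthest libraries), for Myh7 it was -0.16 and for Myh6 it was 0.074, and 40.7%, 81.5% and 91.3% of all genes were related at least as strongly. The libraries differ in other measures too, and these values are a description.

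Tnni1, the fetal troponin I, was close to absent in every group. It had 0, 1, 0 and 10 counts in the WT CD libraries, 2, 4, 3, 9 and 0 in WT ERTU, 5, 3, 6, 4 and 1 in Gαq CD and 5, 2, 3 and 1 in Gαq ERTU. In all 18 libraries its 59 counts were 0.00464% of the 1271463 counts of Tnni1 and Tnni3 (Wilson 95% interval 0.0036% to 0.00598%, counting error only). By group the share was 0.00387% (0.00216% to 0.00693%) in WT CD, 0.00469% (0.00297% to 0.00741%) in WT ERTU, 0.0056% (0.00358% to 0.00875%) in Gαq CD and 0.00417% (0.00233% to 0.00747%) in Gαq ERTU, and the intervals overlapped. The highest share, 0.0212% (0.0115% to 0.039%), was in library 5 of WT CD, which was also the WT CD library highest in atrial markers.

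No difference in the log2 ratio of Tnni1 to Tnni3 was found between genotypes (0.87, exact permutation p 0.229, adjusted p 0.593) or in any other comparison, where exact permutation p values ran from 0.222 to 0.778. At these counts the ratio rests on the pseudocount of 0.5 in libraries with no read. Without the library highest in atrial markers of each group the genotype difference was 1.78 (exact permutation p 0.0049, adjusted p 0.0457). The WT libraries left out there, 5 and 14, were those with the most Tnni1 counts of all, 10 and 9.

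Tnni3, the adult inhibitory subunit, was lower in Gαq hearts by a small margin. It was at 4263, 4450.2, 4935 and 2959.5 CPM in WT CD, at 3926, 4426, 4934, 4359.7 and 4254 CPM in WT ERTU, at 3608, 3154, 3815, 3409.9 and 3509 CPM in Gαq CD and at 4184, 3291, 3471 and 3408 CPM in Gαq ERTU. All Gαq libraries except library 16 lay below every WT library except library 5, which was the lowest of all. The log2 fold change over both diets was -0.27 ± 0.09 (edgeR adjusted p 0.0401). This call was not stable, since the adjusted p was 0.0848 with counts scaled to library totals, 0.0928 with no filter on low counts, 0.11 with atrial markers and 0.755 with cardiomyocyte markers in the model, and above 0.05 in 12 of 18 fits that left out 1 library, where it reached 0.0965. The cardiomyocyte covariate followed genotype, as given above for Myh6.

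Tnnt2 was at 6992 to 12179 CPM in WT and at 9115 to 13898 CPM in Gαq libraries and was not called (log2 fold change 0.10 ± 0.10, edgeR adjusted p 0.551). Its lowest value was again that of library 5, which was the lowest of the WT CD libraries for Tnnt2, Tnni3, Myl2, Myl3, Actc1 and Myh7b.

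Myl3, which binds the neck of the myosin head as the essential light chain, was lower in Gαq hearts. It was at 4785, 5281, 5129 and 4372 CPM in WT CD and at 5329, 5369, 5335, 4186 and 5232 CPM in WT ERTU. In Gαq CD it was at 4420.4, 3602, 3179, 4289.6 and 3903 CPM and in Gαq ERTU at 4747, 3888, 3743 and 3874 CPM. Of the 9 WT libraries 7 lay above every Gαq library, and only libraries 5 and 14 were within the Gαq range. The log2 fold change was -0.33 ± 0.08, a 1.26-fold decrease (edgeR adjusted p 0.0072). It was -0.33 ± 0.12 on each diet taken alone, with adjusted p values of 0.103 on CD and 0.116 on ERTU. With the cardiomyocyte markers, a covariate that followed genotype, in the model it was -0.10 ± 0.10 (adjusted p 0.665).

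Myl2, the regulatory light chain of the ventricle, did not differ beyond its spread. It was at 5100.1 to 9199.7 CPM in WT and at 6621 to 9473 CPM in Gαq libraries, with a log2 fold change of 0.12 ± 0.11 (edgeR adjusted p 0.470). The atrial counterparts were minor. Myl7 counts were at most 1.59% of those of Myl2 in any library, and Myl4 counts at most 13.3% of those of Myl3, the latter in library 8 of Gαq CD. Neither was called by genotype (Myl4 1.65 ± 0.93, adjusted p 0.233, and Myl7 0.65 ± 1.00, adjusted p 0.707).

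Of the 9 members tested, then, 2 were called higher (Myh7 and Acta1) and 3 lower (Myh6, Tnni3 and Myl3) in Gαq hearts over both diets, and 4 were not called. Of all genes tested, 9.72% were called higher and 9.92% lower in the same comparison. The members' median log2 fold change was 0.10, and that of all genes tested was 0.00377.

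**Figure D3:**
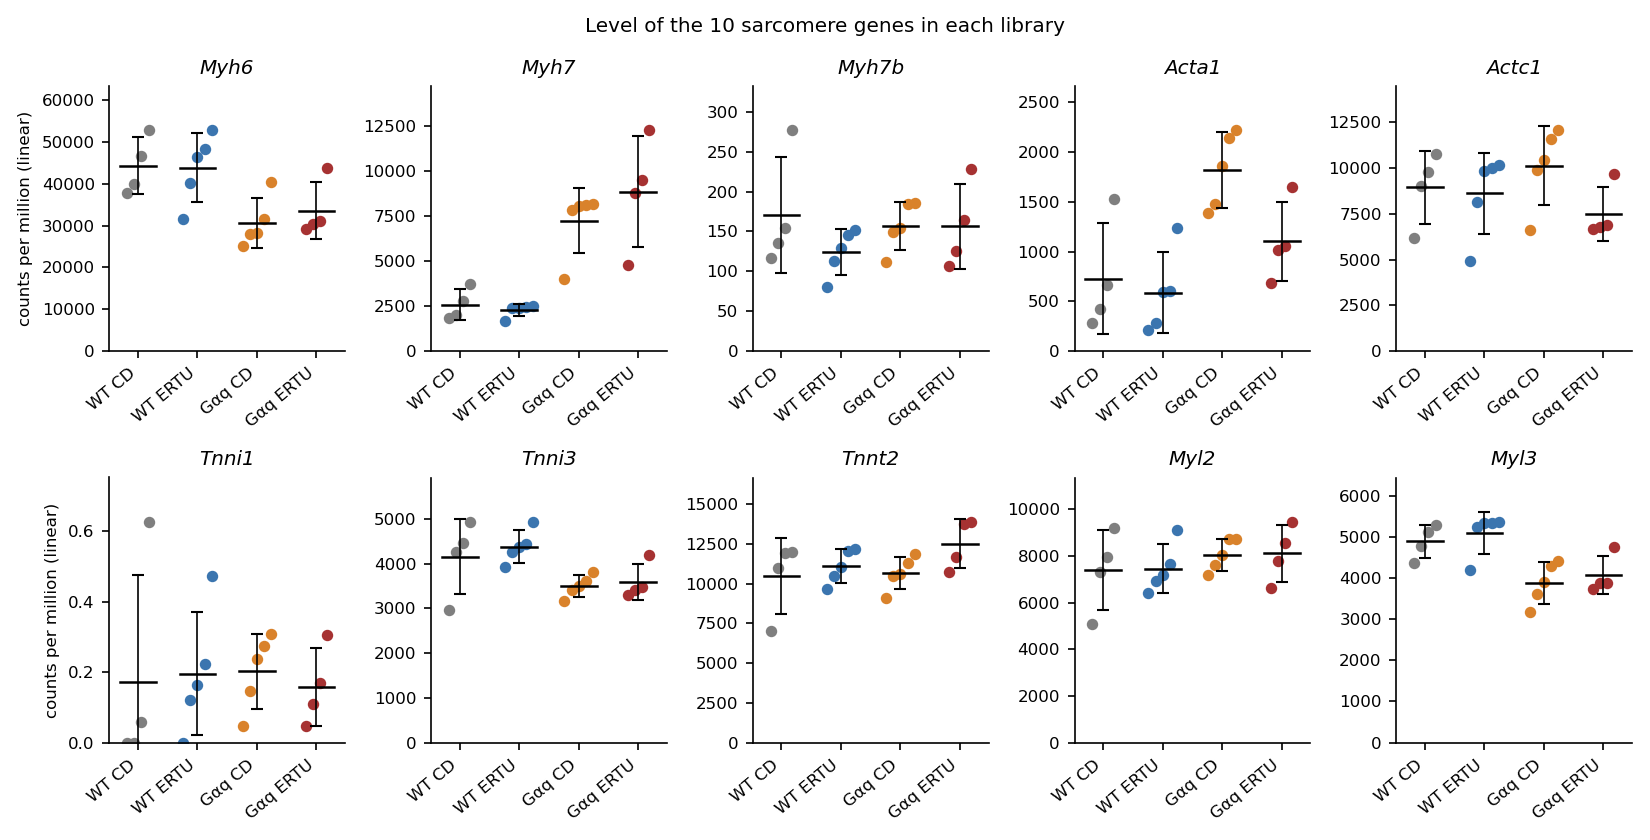
Level of each of the 10 genes in CPM (linear axes from 0), 1 point per library, with the mean and SD of each group in black. Myh7 is the member whose WT and Gαq libraries do not overlap, with 1684 to 3720.0 CPM against 4004 to 12257 CPM.

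The comparison of ERTU with CD asked whether the SGLT2 inhibitor altered these genes. None of the 9 members tested was called by edgeR over both genotypes, in WT hearts, in Gαq hearts or for the interaction. Few genes of any kind were. The counts over all genes were 0 over both genotypes (7.7% at an unadjusted p under 0.05, and 2 genes, Fyb and Cx3cr1, by DESeq2), 0 in WT hearts (2.24%, and 0 by DESeq2), 1 in Gαq hearts (0.00615% of all genes, 7.62% at an unadjusted p under 0.05, and 5 by DESeq2: Lcp2, Themis2, C3ar1, Tlr1 and Cx3cr1) and 0 for the interaction (1.92%, and 0 by DESeq2). These genes were named after their values were seen. The 1 gene called by edgeR was Themis2, with a log2 fold change of -0.77 ± 0.12 (adjusted p 0.0459).

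In Gαq hearts, Acta1 averaged 1820 ± 377 CPM (SD, n = 5) on CD and 1102 ± 401 CPM (n = 4) on ERTU. The ranges of 1392 to 2219.9 CPM and 687 to 1650.1 CPM overlapped, and the log2 fold change was -0.72 ± 0.46 (edgeR adjusted p 0.669). Actc1 averaged 10128.6 ± 2158 CPM on CD and 7502 ± 1462 CPM on ERTU (log2 fold change -0.43 ± 0.22, adjusted p 0.656). Both means were the lower on ERTU, and the log2 ratio of the actins differed by -0.35 (exact permutation p 0.254). Gnaq itself was at -1.22 ± 0.52 on the log2 scale in the same comparison (adjusted p 0.653).

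The average of Myh7 in Gαq hearts was 7234 ± 1809.5 CPM on CD (SD, n = 5) and 8831 ± 3081 CPM on ERTU (n = 4), a log2 fold change of 0.29 ± 0.25 (edgeR adjusted p 0.757). The libraries of both diets overlapped, and the gap to WT was called on each. The SE of these differences, 0.12 to 0.46 on the log2 scale among the 9 members, sets what could be seen. In WT hearts the members' log2 fold changes with ERTU lay between -0.46 for Myh7b and 0.08 for Tnnt2, with adjusted p values of 1.00.

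**Figure D4:**
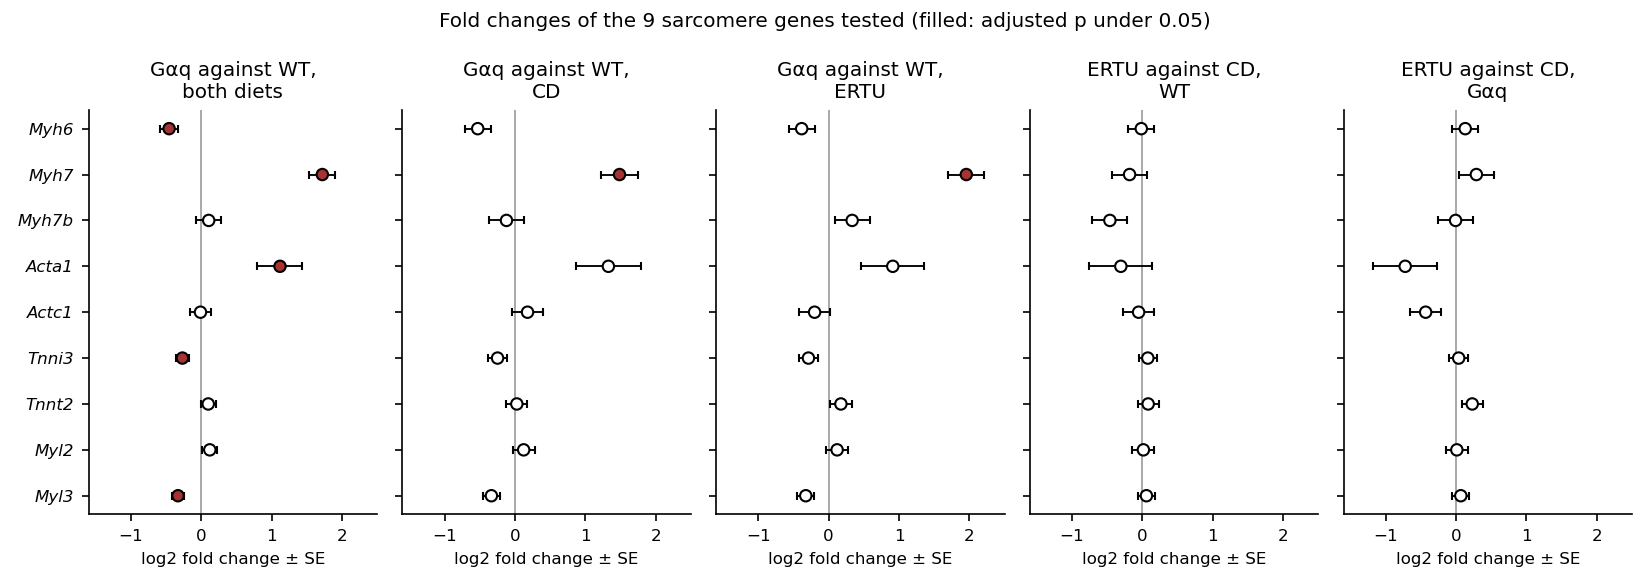
Log2 fold change with its SE for the 9 genes tested in 5 comparisons. Filled points have an adjusted p under 0.05. Gαq against WT gives 5 filled points over both diets and Myh7 alone on each diet, and ERTU against CD gives none.

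Genes of the rest of the thick filament and M-band that were called rose in Gαq hearts. Of 21 listed, 13 were tested, 5 were called higher and none lower, where 9.72% of all genes were called higher and 9.92% lower. Their median log2 fold change was 0.42. Myl1, a fast skeletal and fetal essential light chain, was at 28.6 to 72.4 CPM in WT and 78.1 to 142 CPM in Gαq libraries, with no overlap (1.27 ± 0.16, edgeR adjusted p 9.26e-06). Mybpc2, the fast myosin-binding protein C, was at 49.997 to 118 CPM in WT and 135 to 198 CPM in Gαq libraries, again with no overlap (1.05 ± 0.15, adjusted p 2.14e-05). The M-band protein gene Myom2 was 1.85-fold higher (0.89 ± 0.14, adjusted p 0.000121), and the cardiac myosin-binding protein C gene Mybpc3 and the myosin light chain kinase gene Mylk3 were the other 2. Myl1, Mybpc2 and Myom2 were called on each diet alone.

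In the thin filament list 15 of 16 genes were tested, of which 2 were called higher and 1 lower, and the median was -0.11. As 19.6% of all genes were called, this count is at the background, and the genes are described singly. Tnnt1, slow skeletal troponin T, had the largest change of the list, at 9.34 to 15.3 CPM in WT and 24.1 to 49.2 CPM in Gαq libraries (log2 fold change 1.37 ± 0.12, edgeR adjusted p 1.01e-07). It did not overlap between genotypes and was called on CD (1.34 ± 0.18, adjusted p 9.03e-05) and on ERTU (1.41 ± 0.18, adjusted p 4.64e-05). Tnnt3, fast skeletal troponin T, was at or under 2.85 CPM in every library (1.25 ± 0.38, adjusted p 0.0248). Tmod4, a capping protein of the pointed end of actin filaments, was lower (-0.53 ± 0.08, adjusted p 5.27e-05), at 16.3 to 23.5 CPM in WT and 12.7 to 16.6 CPM in Gαq libraries.

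Skeletal muscle markers were read beside these genes. Of 12 listed, 6 were tested and 3 called higher (Casq1, Tnnt3 and Pvalb), where 9.72% of all genes were called higher. Myh4, Tnnc2, Atp2a1, Actn3 and Ryr1 were under 1 CPM in every library. Without Casq1, a calsequestrin, the summed level was 3.12 to 4.50 CPM in WT and 2.68 to 12.4 CPM in Gαq libraries.

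Of 24 genes chosen as regulators of the isoforms, 23 were tested, 2 were called higher and 3 lower, with a median of -0.09. This count is near the background, since 19.6% of all genes were called, and it is not a result about the list. Dio2, the deiodinase that makes active thyroid hormone, was at 0.600 to 4.52 CPM in WT and 1.69 to 11.2 CPM in Gαq libraries (1.28 ± 0.34, edgeR adjusted p 0.0102). Vgll2, a cofactor of TEAD factors in skeletal muscle, was at 0.420 to 3.33 CPM in WT and 1.097 to 7.89 CPM in Gαq libraries (1.17 ± 0.36, adjusted p 0.0264). Parp1, a poly(ADP-ribose) polymerase, was lower (-0.34 ± 0.08, adjusted p 0.00506), as were Sox6, a transcription factor that represses slow fibre genes in skeletal muscle (-0.33 ± 0.10, adjusted p 0.0224), and the retinoid X receptor gene Rxra (-0.25 ± 0.08, adjusted p 0.0271). The thyroid hormone receptor genes Thra (-0.01 ± 0.08, adjusted p 0.945) and Thrb (-0.30 ± 0.12, adjusted p 0.0731) and the serum response factor gene Srf (-0.09 ± 0.11, adjusted p 0.613) were not called. None of these regulators was called on either diet alone.

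**Figure D5:**
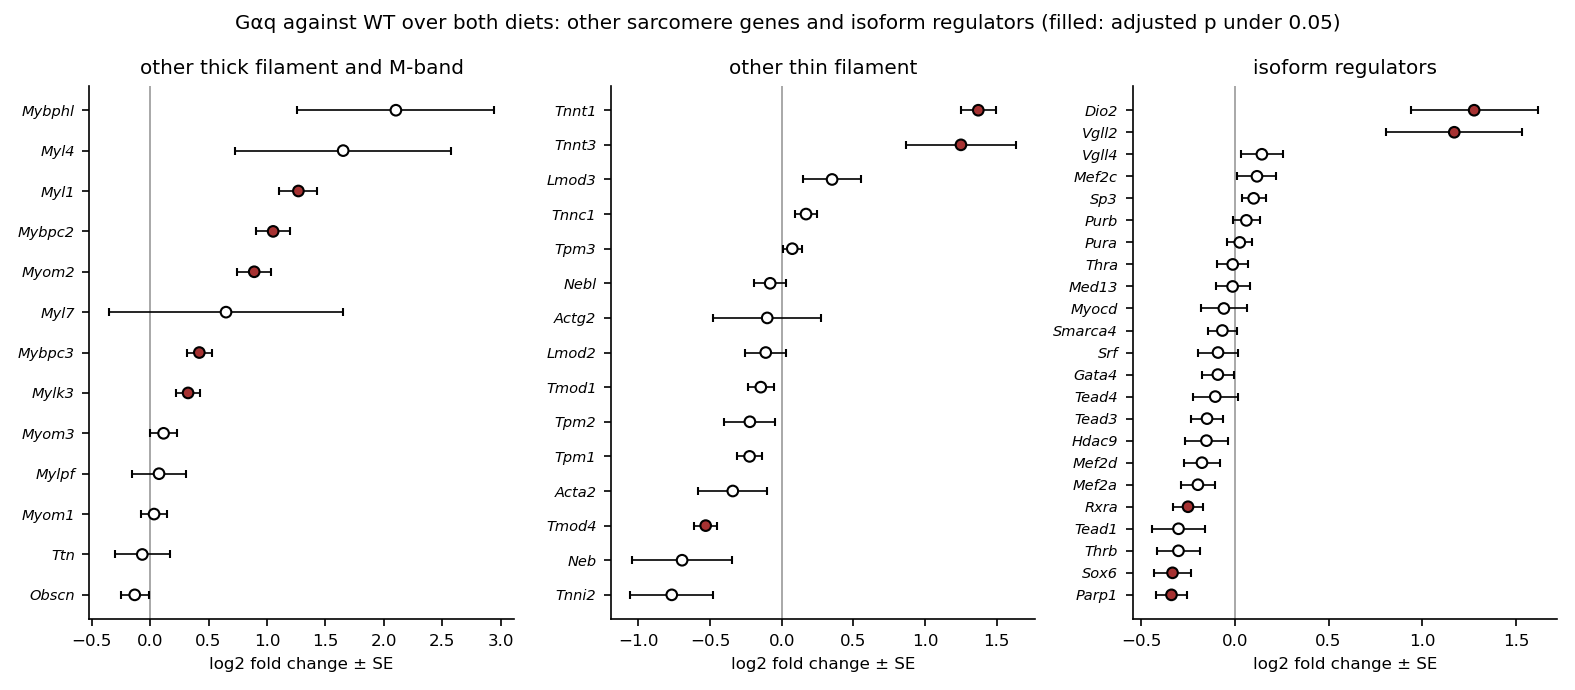
Log2 fold change with its SE of Gαq against WT over both diets for the tested genes of 3 lists (other thick filament and M-band, other thin filament, isoform regulators). Filled points have an adjusted p under 0.05. The filled points of the thick filament list, 5 of 13, all lie above 0, and 19.6% of all genes were called in this comparison.

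After the group means were removed, the members fell into sets that moved together across the 18 libraries. Tnni3 and Myl2 had a Pearson r of 0.90, Tnni3 and Tnnt2 of 0.83, Myh6 and Myh7b of 0.73, and Myh6 and Actc1 of 0.70. Acta1 and Myl2 had an r of -0.61, and Myh7 and Acta1, which were both higher in Gαq hearts, of only 0.13. A slope of log2 level against transcript length, taken for each library over 9580 genes, was related to Tnni3 (r -0.67) and Myl2 (r -0.68), both short transcripts, and to Myh6 (r 0.49), a long one. All these values share library composition and scaling and are a description. The mean slope was 0.016 in WT CD, -0.014 in WT ERTU, 0.017 in Gαq CD and -0.020 in Gαq ERTU libraries. With the slope added to the model, the same number of members, 5, was called by genotype. As the slope differed little between genotypes on either diet, this fit could change the genotype differences little.

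The genes whose deviations were most like those of Myh7 over the 18 libraries were Zfp385b (r 0.87, Spearman rho 0.81), Btrc (0.85 and 0.68) and E230013L22Rik (0.84 and 0.67). For Acta1 they were Spire1 (0.85 and 0.88), Furin (0.84 and 0.73) and Zranb3 (0.83 and 0.90). They were taken from all tested genes with a mean log2 CPM of at least 1, and the values describe likeness only.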

How the data were processed

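Total RNA from left ventricle was made into poly(A)-selected libraries and sequenced as 100-base read pairs. Per the labels and the study's methods, the authors aligned reads to mm10 with STAR (2.6.0c) and deposited whole-number counts of uniquely aligned pairs per Ensembl gene from featureCounts (Subread 1.6.2). The authors also deposited variance-stabilized values on a log2 scale made with DESeq2 (1.23.10 in the submitters' processing notes), used here only as an alternative for the ratios. Libraries held 15383566 to 20908363 counts. The submitters' own comparison values were not used. Columns were placed in groups by their names. Of the IDs, 99.4% matched GENCODE M21, and 1 ID was found for each of the 114 listed symbols.

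Genes were kept by filterByExpr over the 4 groups, and those left out held 0.0906% of counts. Counts were scaled by TMM and tested with edgeR (4.0.16, R 4.3.3) quasi-likelihood F tests, with genotype and diet as factors for the effects over all libraries and with 4 group means for the other comparisons. P-values were adjusted by Benjamini-Hochberg over all 16270 genes, with a threshold of 0.05. The SE is the log2 fold change divided by the square root of F. Log2 CPM used a prior count of 2. Ratios used counts plus 0.5 and exact 2-sided permutation tests, adjusted over 21 tests. Intervals are Wilson 95% and cover counting error only. Alternatives were other scalings and filters, DESeq2 (1.42.0), voom (limma 3.58.1), marker and length covariates and leaving out libraries.

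On data simulated for ERTU in Gαq hearts, 184 of 200 genes changed by a fold of 2 were recovered (92%, 16045 genes tested, 5 false calls). The changed genes were drawn only from those with a mean CPM above 5, and the simulated counts were independent between genes. This share does not hold for each member, since the SE of Acta1 in the real comparison was 0.46 on the log2 scale. Members, gene lists and tests were chosen with earlier results of these data known. Named beside the members were up to 3 called genes with the largest rise and fall of each sarcomere or regulator list, the 3 genes most like Myh7 and Acta1, genes overlapping a member, and Myl4 and Myl7. The rule also asked for genes most like Tnni1, which was not tested because its counts were too low. The study's methods name an NEBNext Ultra II RNA kit and a count restricted to pairs on the same strand, but do not say whether this kit version marked strand. Unless it did, reads of a gene and its antisense partner are not separated.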

Additional observations from a re-analysis of the deposited data

Results flagged for a closer look

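In 8 of 52 groups of 4 or 5 libraries, 1 library stood apart from the others by Dixon's 95% criterion, which chance gives in 1 of 20 groups, or 2.6 of 52. The number in parentheses is the distance to its closest neighbour as a share of the whole spread of that group.

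Myh7 in Gαq CD library 8 was at 4004 CPM, where the other 4 were at 7839 to 8144 CPM (0.926). This library was also the highest in atrial markers, and its part in the low Myh7 was not tested. Myh7 in WT ERTU library 15 was at 1684 CPM against 2366 to 2477 CPM (0.860). The log2 ratio of Myh7 to Myh6 in Gαq ERTU library 20 was -2.61 against -1.84 to -1.68 (0.832), and this was the library highest in atrial markers of its group.

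Gαq ERTU library 17 was high for Myh6, at 43736 CPM against 29233 to 31006 CPM (0.878), and for Actc1, at 9691 CPM against 6647 to 6868 CPM (0.927). It also held the most Gnaq of its group, at 5207 CPM. Myl3 in WT ERTU library 14 was at 4186 CPM against 5232 to 5369 CPM (0.884), and in Gαq ERTU library 16 at 4747 CPM against 3743 to 3888 CPM (0.856). Tnni1 in WT CD library 5 was at 0.628 CPM, or 10 counts, against 0 to 0.057 CPM (0.909).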

How the results depend on the processing

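No paired analysis was possible because no source here pairs hearts between groups. The numbers in the column names run across the series and are not the replicate numbers of the labels. Myh7 kept its direction and its call by genotype and on each diet under every alternative run. The number of members called by genotype was 5, 2 with cardiomyocyte markers or 3 with atrial markers in the model, and 4 with total counts only or no filter (Tnni3 lost) and without the highest atrial libraries (Acta1 lost). On CD it was 1, and 2 with total counts only, no filter, voom or the length slope, and 3 by DESeq2. On ERTU it was 1, and 2 by DESeq2 and 4 by voom. With cardiomyocyte markers in the model, 1005 genes were called by genotype, 481 on CD and 536 on ERTU, and voom called 2755 on ERTU. The cardiomyocyte covariate followed genotype, so that the fit with it also takes out genotype differences. DESeq2 called 2 genes by diet and 5 for ERTU in Gαq hearts, where edgeR called 1, and 0 were called with total counts only, no filter, any of the 3 covariates, without the highest atrial libraries or with only the compared groups fitted.

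Actc1 changed sign by genotype to 0.045 (total counts only), 0.27 (cardiomyocyte markers) and 0.12 (atrial markers). The ratio differences that changed sign were those of Myh7 to Myh6 by diet (-0.040 by medians), Acta1 to Actc1 for the interaction (0.017 by medians), and Tnni1 to Tnni3 by diet (-0.025 from variance-stabilized values) and for ERTU in Gαq hearts (0.12 without the highest atrial libraries). That of Tnni1 to Tnni3 by genotype rose to 1.78 without those libraries. Those libraries held 10 (WT CD library 5), 9 (WT ERTU library 14), 6 (Gαq CD library 8) and 1 (Gαq ERTU library 20) Tnni1 counts. The WT CD libraries that remained held 0, 1 and 0. No cause was tested.

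Leaving out 1 library at a time gave 2812 to 3458 genes by genotype, 788 to 1414 on CD (788 without WT CD library 1 and 851 without library 2), 946 to 1696 on ERTU and 0 to 0 for ERTU in Gαq hearts, and 4 to 5 members by genotype and 1 to 2 on each diet. Single members gained a call when 1 library was left out: Acta1 on CD without WT ERTU library 11 (1.33, adjusted p 0.04995) as well as WT CD library 1 (1.99), Myh6 on CD without Gαq CD library 6, Tnni3 on CD without WT CD library 5 and Myl3 on ERTU without WT ERTU library 14 (edgeR adjusted p 0.0303, 0.0410 and 0.0473). Changes of sign occurred for Myh7b (-0.023 to 0.28) and Actc1 (-0.092 to 0.038) by genotype. They also occurred for Myh7 to Myh6 for ERTU in WT (-0.25 to 0.018) and in Gαq hearts (-0.047 to 0.34) and by diet (-0.080 to 0.11), for Acta1 to Actc1 for ERTU in WT (-0.62 to 0.14) and the interaction (-0.49 to 0.27), and for Tnni1 to Tnni3 for ERTU in Gαq hearts (-0.75 to 0.0099), Gαq on ERTU (-0.33 to 0.65) and diet (-0.042 to 0.83). Depth limits Tnni1, with 59 counts in all. The alternatives with atrial markers, with the length slope and without the highest atrial libraries were chosen after seeing the data.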

Other observations

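The atrial light chains, Myl4 and Myl7, varied far more than the ventricular pair. Myl4 was at 1.51 to 125.7 CPM in WT and 4.36 to 423 CPM in Gαq libraries, and Myl7 at 0 to 78.5 CPM and 0 to 138 CPM. The counts of Myl4 were 1.36 to 2.00 times those of Myl7 in the 5 WT libraries with at least 30 Myl7 counts, and 2.18 to 5.43 times in the 7 such Gαq libraries. These ranges did not overlap, but the separation holds only above that cut. In the WT libraries left out, Myl4 and Myl7 counts were 64 and 8 (library 2), 26 and 6 (library 4), 51 and 10 (library 11) and 36 and 0 (library 12). Each of these had more Myl4 relative to Myl7 than any WT library kept. The Gαq libraries left out had 71 and 0 (library 6) and 95 and 11 (library 7). This ratio was chosen after the values had been seen, and no test is given.

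Casq1, the calsequestrin of fast skeletal muscle, was at 29.1 to 77.0 CPM in WT and at 114 to 417 CPM in Gαq libraries, with no overlap (log2 fold change 1.83 ± 0.19, edgeR adjusted p 9.21e-07). The other skeletal markers stayed low beside it, with a sum of at most 12.4 CPM in any library.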
